A study of Homo sapiens with 2 samples.

Results

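The regions described here are ZNF676 peaks that lay in the exons of protein-coding genes, away from promoters. They were the peaks of the ZNF676 list whose midpoint fell in coding or untranslated exon sequence of a protein-coding transcript and more than 500 bp from every start of a protein-coding transcript or lncRNA gene. The peak score was not used to choose them. Of the 6142 ZNF676 peaks, 216 met the rule (3.52%, exact 95% interval 3.07 to 4.01%). Another 1894 lay in introns under the same limit, 1560 lay within 500 bp of a start, and 2472 lay elsewhere.

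The list came from ChIP-exo, which maps where a protein sits on DNA by immunoprecipitation followed by exonuclease trimming, in HEK293T, a human embryonic kidney cell line. The cells had been transduced with a lentiviral vector for ZNF676 carrying a 3HA tag. They were selected with puromycin at 1 µg/ml for 7 days, induced with doxycycline at 1 µg/ml, fixed with 1% formaldehyde for 10 min, and the protein was recovered with an antibody to HA. A second line, made and treated in the same way with ZNF728-3HA, gave 248 peaks. There was 1 library per protein, the protein was an overexpressed tagged form, and a library from cells without a tagged protein was not analysed here, so every test below takes peaks as units and measures only the spread between peaks. The files hold neither read counts nor HEK293T expression, so the depth behind a peak and the identity of the cells could not be checked.

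ZNF676 belongs to the KRAB zinc finger proteins (KZFPs), which read DNA through a row of C2H2 zinc fingers and recruit the corepressor KAP1 through the KRAB domain. Most KZFPs bind transposable elements, and the study was concerned with LTR12C, the long terminal repeat of a primate endogenous retrovirus. Exons are seldom made of such repeats, and a fair share of human first exons lie in CpG islands, stretches of GC-rich DNA that keep their CpG dinucleotides and usually surround promoters.

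Sequences shared by exonic peaks and LTR12C are shown first, because LTR12C is the repeat under study. In 383 ZNF676 peaks lying by at least 50% in LTR12C-like copies, 96 words of 10 letters were each present in at least 25% of the 200 bp windows around the midpoints. The commonest, GCCCTTCAGC, was in 60.6% of these peaks, and the 9 letters AGCCCTCGC, contained in another, were in 43.6%. Both strands were searched. The lines below give 30 bases of hg19 around the match, read 5′ to 3′ on the strand that holds the word, with the word in capitals. MTRFR and KCNH6 hold the first word and the others hold the second. KCNH6, CHADL and SH3TC1 were picked after their values were seen, for holding these words.
MTRFR, 5′ UTR, chr12:123734272-123734301, minus strand: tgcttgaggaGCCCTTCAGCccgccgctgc
KCNH6, coding, chr17:61615763-61615792, minus strand: actcggggaaGCCCTTCAGCacctgcaagg
CES3, 3′ UTR, chr16:67008022-67008051, plus strand: cagccctcacAGCCCTCGCttgctctccct
CPEB2, coding, chr4:15005128-15005157, plus strand: aggcgcgggcAGCCCTCGCaagaccccagc
NR2F6, coding, chr19:17355794-17355823, plus strand: aagctcttgcAGCCCTCGCaggtgaagaca
CHADL, coding, chr22:41633826-41633855, plus strand: tgcaggccgcAGCCCTCGCagctgctgtgc
SH3TC1, coding, chr4:8224604-8224633, minus strand: ctcagaaaagcAGCCCTCGCtgaagaatga

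These sequences match a little beyond the words. MTRFR and KCNH6 both have an A before theirs. The others all have a C before theirs, which makes CAGCCCTCGC, another of the 96 words, and all but CES3 have GC there. CPEB2, NR2F6 and CHADL also share the A that follows. Farther out the sequences differ, and only those of MTRFR and CES3 lie in peaks that touch an LTR12C-like copy. The commonest word was in 2 of the 216 exonic windows (0.926%) and in 0.107% of 182116 exon windows without a peak. The 9-letter word was in 5 exonic windows (2.31%), against 0.113% of the exon windows without a peak, 0.389% of the intronic peaks off LTR12C and 2.06% of the peaks near a start off LTR12C. The exonic share was thus close to that of peaks near a start, and 1 of the 5, CES3, touches a copy. Of the 15 exonic peaks with a score of at least 200, 3 held it, namely CES3, CPEB2 and NR2F6. The other 201 held it in 2 windows. Over all ZNF676 peaks off LTR12C it was in 18 of 359 with a score of at least 200 and in 11 of 3415 with a score below 100. CPEB2 and NR2F6 are among the 18, so this is not a separate observation. No share weighted to GC content was computed for this word. The 9-letter word was singled out after these counts were known, so they are given with no test. Counting any of the 96 words, 29 of 216 exonic windows held at least 1 (13.4%), against 6.58% of the exon windows without a peak. With those windows weighted to the GC content of the exonic peaks the share was 9.45%.

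Peaks that touched LTR12C-like sequence itself were few in exons. They numbered 2 of 216 (0.926%), against 93 of 1894 in introns (4.91%; Fisher's exact test, p = 0.0047, adjusted p = 0.00615 over 17 tests). The peak in CES3, which encodes a carboxylesterase, had 366 of its 849 bp in a copy and a score of 1067. The peak in MTRFR, a factor that rescues stalled mitochondrial ribosomes, had 488 of 728 bp in a copy and a score of 334.5. Both lay in untranslated sequence, and none of the 155 peaks in coding sequence touched a copy.

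Scores of the exonic peaks ran from 80.1 to 1105, with a median of 96.2 and quartiles of 84.7 and 123. The score is the one deposited with each peak, and all 6142 exceeded 80. Peak widths ran from 122 to 1885 bp with a median of 449 bp. A score of 200 was reached by 15 peaks, and 121 were below 100. The median of the whole list was 95.1, and 111 of the exonic peaks were at or above it.

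The highest exonic score was 1105, in exon 3 of TCF24, a basic helix-loop-helix factor (chr8:67873254-67874172). After CES3 came exon 1 of CPEB2, which binds cytoplasmic polyadenylation elements (chr4:15004731-15005643), with a score of 960.5. Exon 2 of SPATA2L (chr16:89767211-89767881) scored 919 and exon 3 of FOXL3, a forkhead factor (chr7:330956-331390), scored 682. These coding peaks had a GC content of 72 to 82% in the 200 bp around the midpoint, and the midpoints lay 502 to 1113 bp from a start. The sixth, at 555, was different. It lay in the 3′ UTR of RHOQ (chr2:46809243-46809669), 2079 bp from a start, with a GC content of 37% and no CpG in its window.

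Below these, KLHL31, a kelch-like protein, scored 367 in exon 3 of 3, and MTRFR followed. SPIRE1, an actin nucleator, scored 329 in exon 1, SKIDA1 311 in its last exon, and GPC2, a cell-surface glypican, 299 in exon 8 of 10. NR2F6, an orphan nuclear receptor, scored 272 in exon 1. CCDC92B scored 263 in its last exon. SH3PXD2A, a scaffold of podosomes, scored 217 in exon 8 of 15. LRRC45 scored 201 in the 3′ UTR. Several of these peaks were wider than the exon that held their midpoint. The exon covered 17.1% of the GPC2 peak, 24.1% of the SH3PXD2A peak, 38.9% of the LRRC45 peak and 44.9% of the TCF24 peak, whereas it covered all of the CPEB2, CES3, RHOQ, MTRFR and SKIDA1 peaks.

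**Figure D1:**
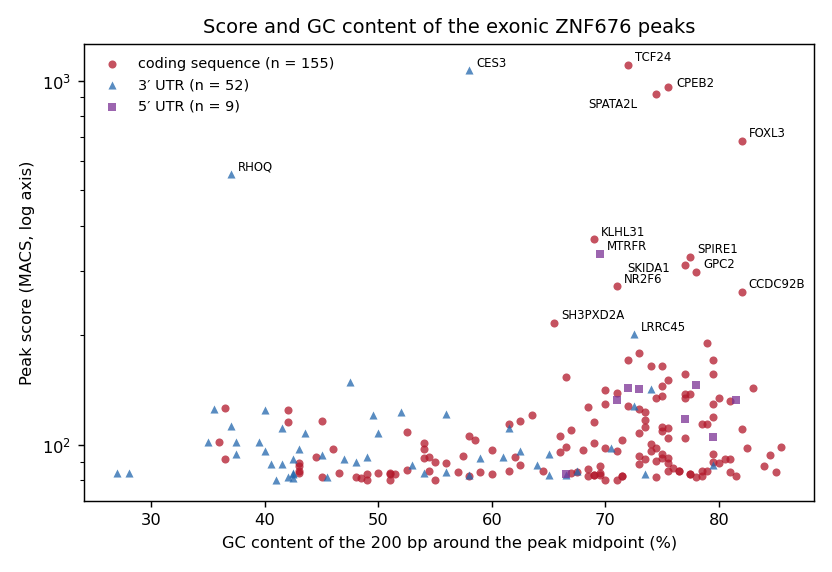
Score (vertical, log axis) against GC content of the 200 bp around the midpoint (horizontal, percent) for each of the 216 exonic peaks, with colour and shape for coding sequence, 3′ UTR and 5′ UTR and names for the 15 highest scores. The peaks form a crowd at high GC content made mainly of coding sequence and a spread of low scores below 60% GC, with CES3 and RHOQ alone above a score of 200 at lower GC content.

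The exonic peaks were GC-rich. Their windows had a GC content of 63.9% ± 14.2 (SD, n = 216), against 47.6% ± 11.4 in windows at the centres of 182121 exon segments that met no ZNF676 peak. The difference of 16.3 percentage points was larger than any of 100000 permutations gave (p = 1e-05, the smallest they can give; adjusted p = 1.7e-05). Of the exonic peaks, 100 had a GC content of at least 70%. Windows were called island-like when their GC content exceeded 50% and the ratio of observed to expected CpG exceeded 0.6. By this measure 113 of 216 exonic peaks were island-like (52.3%, exact 95% interval 45.4 to 59.1%), against 8.18% of intronic peaks (Fisher's exact test, p = 8.78e-53, adjusted p = 1.49e-51), 5.96% of exon windows without a peak and 92.5% of peaks within 500 bp of a start.

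Coding sequence and the 3′ UTR differed in this respect. Coding sequence held 155 of the 216 peaks (71.8%, exact 95% interval 65.3 to 77.7%) but 43.1% of the exonic bases that could hold one (exact binomial test, p = 2.15e-17, adjusted p = 9.14e-17). The 3′ UTR held 52 and the 5′ UTR 9. Among coding peaks 99 were island-like (63.9%), among 5′ UTR peaks 7 of 9, and among 3′ UTR peaks 7 of 52 (13.5%). The share in coding sequence exceeded that in the 3′ UTR (Fisher's exact test, p = 1.07e-10, adjusted p = 2.6e-10). The median GC content was 71.5% in coding peaks, 47.8% in 3′ UTR peaks and 73% in the few 5′ UTR peaks.

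**Figure D2:**
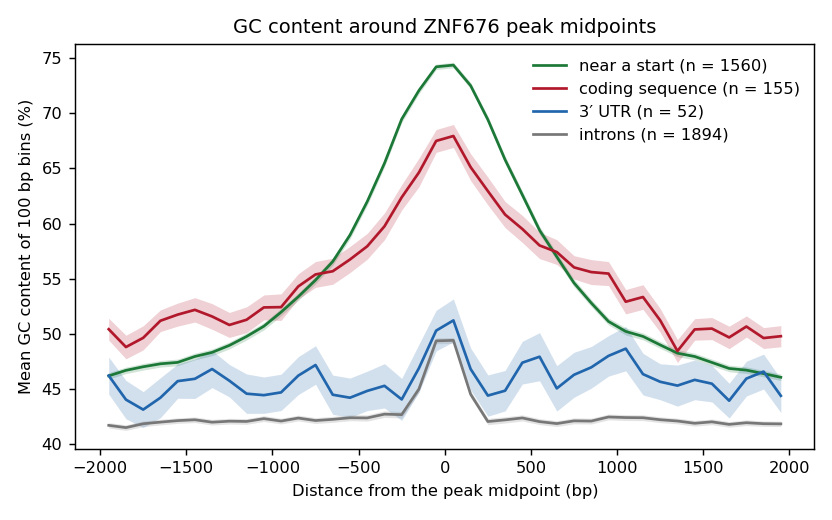
Mean GC content (vertical, percent) in 100 bp bins by distance from the peak midpoint (horizontal, bp) for peaks near a start, in coding sequence, in the 3′ UTR and in introns, with bands of 1 standard error over peaks. The coding peaks sit on a broad GC-rich rise like that of peaks near a start, from 50.4% at the left edge to 67.9% at the centre, and the intronic and 3′ UTR peaks on a narrow, low one.

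The island-like exonic peaks and the others differed in more than composition. Island-like peaks had a median width of 595 bp against 256 bp for the other 103 (permutation test on log10 width, p = 1e-05, adjusted p = 1.7e-05), and a median score of 105 against 91.4 (permutation test on log10 score, p = 0.00033, adjusted p = 0.000468). Their median distance from a start was 1219 bp, against 11583 bp. Of the 15 peaks with a score of at least 200, 12 were island-like, the exceptions being CES3, RHOQ and MTRFR.

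An 8-letter word stood out in the exonic peaks, counted over all of them and not only the island-like ones. GCCGCCGC, on either strand, had the largest excess of all 8-letter words in the exonic peaks over the exon windows without a peak. It was in 47 of 216 windows (21.8%) and in 0.714% of the exon windows, or 14.2% once these were weighted to the GC content of the peaks. The lines below give it in 6 genes named by score or family, with 30 bases of hg19 on the strand that holds the word and the word in capitals.
FOXL3, chr7:331128-331157, minus strand: cttggggccgcGCCGCCGCcgccgccgccg
SKIDA1, chr10:21805910-21805939, plus strand: cagtccttggcGCCGCCGCgcttgcgcttg
CCDC92B, chr17:2627911-2627940, minus strand: ctgcccacgagGCCGCCGCcaagggccccg
ZFHX3, chr16:72821616-72821645, plus strand: ccaccgccgccGCCGCCGCcactgccaccg
ZIC5, chr13:100623361-100623390, plus strand: ccgctgctgccGCCGCCGCcactgttggtg
FOXD1, chr5:72743271-72743300, minus strand: gcgccgccgccGCCGCCGCcttccacccgc

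In FOXL3, ZFHX3, ZIC5 and FOXD1 the word stood inside a longer run of the same triplet. In SKIDA1 and CCDC92B it stood alone in the bases shown. Their whole 200 bp windows held 6 and 2 matches, against 4, 11, 2 and 5 in the others, in the order given. The word was also in 33.5% of ZNF676 peaks near a start and in 1.11% of intronic peaks off LTR12C, and in 1 of the 383 peaks on LTR12C-like copies. Other motifs were searched on both strands, and their shares are given with no test. The GC box GGGCGG was in 34.7% of exonic peaks, 6.68% of exon windows without a peak and 36.2% of those windows after weighting for GC content. CCAAT, the box read by NF-Y, was in 11.6%, 24.6% and 13.4%. CACGTG was in 4 exonic peaks (1.85%, against 4.98% of the weighted windows), CCGGAA in 12 (5.56%, against 5.66%), TGANTCA in 6 (2.78%, against 2.71%), GATAAG in 2 (0.926%, against 2.64%) and TGACGTCA in none (against 0.0848%). A match is a description of letters and not a bound site.

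Exons held more peaks per base than introns. The density was 3.08 peaks per megabase over 70.1 megabases of exon and 1.65 over 1151 megabases of intron, a ratio of 1.87 (exact binomial test, p = 6.95e-16, adjusted p = 2.36e-15). Within strata of GC content and of distance from a start, added after the data were seen, Poisson regression gave a ratio of 1.05 (95% interval 0.902 to 1.22), so no excess over introns was detectable over all strata together. The single ratio pools bins of GC content that differed in direction, as given below. Coding sequence alone, with 5.13 peaks per megabase, kept a ratio of 1.21 (95% interval 1.01 to 1.45) within the same strata, down from 3.12 without them. The 5′ UTR, with 9 peaks or 5.26 per megabase, had a ratio of 1.17 (95% interval 0.596 to 2.28), down from 3.19. The 3′ UTR, with 1.36 peaks per megabase, had a ratio of 0.797 (95% interval 0.605 to 1.05).

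The rise with GC content was steep. Exons held 0.142 peaks per megabase below 35% GC, 2.32 at 60 to 65%, 8.75 at 65 to 70%, 42.9 at 70 to 75%, 154.9 at 75 to 80% and 229 at 80% or more. Introns stood higher at 45 to 50%, with 2.61 against 1.62 in exons, and at 50 to 55%, with 3.27 against 1.94. They followed a like course from 60 to 75%, with 2.69, 7.74 and 37.1, and then stood lower, at 66.3 and 81.5. The 2 highest exonic bins together covered little sequence, 0.284 and 0.0742 megabases, and held 44 and 17 peaks.

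**Figure D3:**
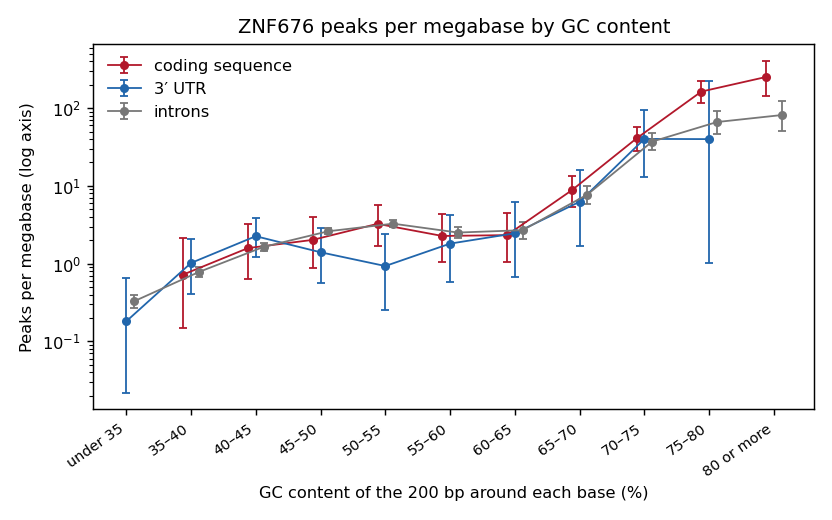
Peaks per megabase (vertical, log axis) by GC content of the 200 bp around each base (horizontal, percent) for coding sequence, 3′ UTR and introns, with exact Poisson 95% intervals over peaks; bins without a peak are not drawn. The curves rise together from 60 to 75% GC, and coding sequence stands above introns in the 2 highest bins.

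The exonic peaks were also crowded towards starts. Although all peaks within 500 bp of a start had been left out, 91 of 216 (42.1%, exact 95% interval 35.5 to 49.0%) lay at 501 to 2000 bp, where 13.6% of the eligible exonic bases were (exact binomial test, p = 7.96e-25, adjusted p = 4.51e-24). Density fell from 13.9 peaks per megabase at 501 to 1000 bp to 6.66 at 1001 to 2000 bp and 1.62 beyond 20000 bp. Of the 91, 81 had the start of their own gene nearest, 78 lay downstream of the nearest start, and 7 had another ZNF676 peak within 500 bp of that start. Island-like windows made up 73 of the 91 and 40 of the 125 farther peaks (Fisher's exact test, p = 1.79e-12, adjusted p = 5.07e-12).

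**Figure D4:**
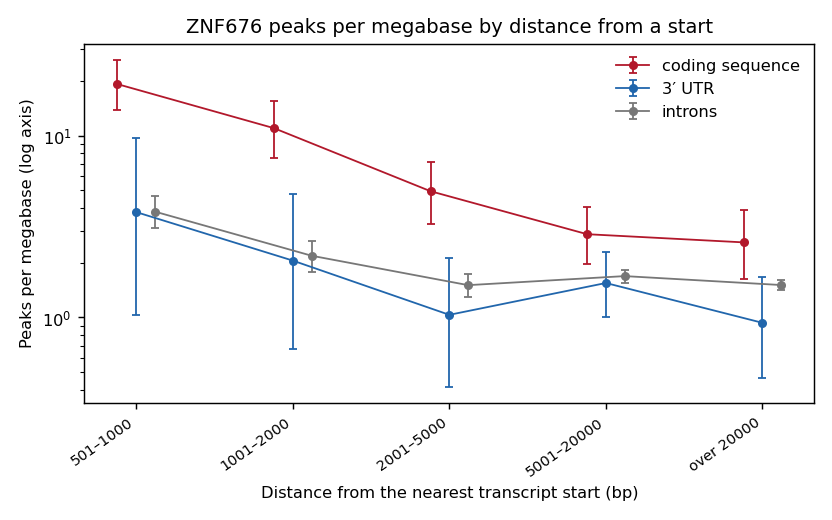
Peaks per megabase (vertical, log axis) by distance from the nearest transcript start (horizontal, bp) for coding sequence, 3′ UTR and introns, with exact Poisson 95% intervals over peaks. Coding sequence falls from 19.2 at 501 to 1000 bp to 2.59 beyond 20000 bp and stands above introns in each bin, without matching for GC content.

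The limit of 500 bp cut through this crowd. The closest members were SPATA2L at 502 bp (score 919), SLC35D3 at 502 bp (91.4) and SPIRE1 at 508 bp (329). The nearest peaks left out were IQSEC1 at 500 bp (score 83.5), TLNRD1 at 498 bp (98.7) and LTBP1 at 496 bp (159). These 6 had a GC content of 73.5 to 81%, and 848 peaks with their midpoint in an exon lay inside the limit. Of the members, 38 had at least 1 base within 500 bp of a start. Without such peaks 178 exonic peaks remained, and their share within 2000 bp was 29.8%.

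By place in the transcript, 35 exonic peaks lay in the first of several exons, 80 in an internal exon, 89 in the last exon and 12 in a gene of a single exon. The exon was the gene's only coding exon in 21. The share of eligible exonic bases in each place was not computed, so these counts show no preference. The 3′ UTR alone made up 38.2 of the 70.1 megabases of eligible exon. The 5′ UTR peaks with the highest scores, after MTRFR, were CHST2, a carbohydrate sulfotransferase, at 146, and NR2F1, an orphan nuclear receptor, at 143. Both genes also had a ZNF676 peak at a start of their own, with scores of 86.6 and 168. In the 3′ UTR the 3 highest were CES3, RHOQ and LRRC45, and the LRRC45 peak lay 806 bp from the start of RAC3.

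Scores in exons were little higher than in introns. The median was 96.2 against 92.0, and the ratio of geometric means was 1.07 (permutation test, p = 0.0258, adjusted p = 0.0313). By the same permutation test the call was lost when the limit from starts was 1000 bp (ratio 1.04, p = 0.289), when scores under the list's median were dropped (1.04, p = 0.445) and without peaks reaching within 500 bp of a start (1.04, p = 0.22). Island-like exonic peaks had a median score of 105 and island-like intronic ones 99.7 (permutation test, p = 0.544, adjusted p = 0.544). For the peaks that were not island-like the medians were 91.4 and 91.6 (permutation test, p = 0.507, adjusted p = 0.539). Peaks near a start scored higher than exonic peaks, with a median of 109.6 (permutation test, p = 0.0001, adjusted p = 0.000155).

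Repeated sequence was scarce in the exonic peaks. A window was called repeat-like when the median count of its 16-letter words in the genome, both strands together, was at least 10. This was so for 14 of 216 exonic peaks (6.48%) and 851 of 1894 intronic peaks (44.9%; Fisher's exact test, p = 3.36e-33, adjusted p = 2.86e-32), and for 3.53% of exon windows without a peak. Of the 14, 12 lay in the 3′ UTR. A copy was present for 8 exonic peaks elsewhere in the genome, with at least 95% identity over at least 50% of their length, so that their reads may not be placed with certainty. Their genes were NCF1, PSPH, TRMT9B, RABGEF1, NMNAT3, CFC1B, EXPH5 and EEF1A1, and they scored 80.3 to 127.

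One exonic peak was shared with ZNF728. It lay in the 3′ UTR of SENP2, which encodes a SUMO protease, with a score of 128 in the ZNF676 list and 103 in the ZNF728 list, and the peaks overlapped by 111 bp. Its window had a GC content of 72.5% but a CpG ratio of 0.109. Of the other 5926 ZNF676 peaks, 8 overlapped a ZNF728 peak (Fisher's exact test, p = 0.276, adjusted p = 0.313). With 1 exonic overlap and 248 ZNF728 peaks, a difference between exons and the rest was not detectable.

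The exonic peaks fell in 220 of the 19628 protein-coding genes that have an eligible exon, which is 1.12% of them. KMT2D, a histone H3 lysine 4 methyltransferase, was the only gene with 2, in exons 32 and 9 of 55, with scores of 129 and 93.4 and GC contents of 70% and 57.5%. A peak within 500 bp of a start of the same gene was present for 23 of the 220 (10.5%), against 7.9% of all 19628 genes and 7.87% of those without an exonic peak. No exonic peak lay in ZNF676, ZNF728, DNAH11 or C4orf47. DNAH11 held 1 intronic peak and C4orf47 1 near a start.

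Gene families were described beside the share of 1.12% over all genes, without a test. Except for the C2H2 genes they were lists of symbol beginnings, so their counts hold for the listed symbols only. Such lists miss members with other names and take in unrelated genes. The cilium list holds KIF and TTC genes whatever their function, and the ribosomal list holds kinases whose symbols begin with RPS. Of 705 C2H2 zinc finger genes, 11 had an exonic peak (1.56%). The highest scores were 171 in ZFHX3, a large homeodomain and zinc finger factor, 157 in ZIC5, 134 in ZNF775 and 123 in ZNF771. All 4 lay in island-like coding sequence. Of the 11, only ZBTB7A, ZNF483 and ZNF276 had their peak in the 3′ UTR. Forkhead genes had 4 of 53 (7.55%), in FOXL3, FOXD1 at 143, FOXF2 and FOXK1, each in coding sequence with a GC content of 69 to 83%. Listed homeobox genes had 4 of 122 (3.28%), with ZFHX3 and then POU2F2 at 111 in its 3′ UTR, beside DLX5 and DLX6, which are neighbours on chromosome 7. The homeobox genes ONECUT3 and UNCX are not in that list and had coding peaks with scores of 125 and 93.5. SOX11, a neural and developmental factor, was 1 of 19 SOX genes and scored 116.

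Ubiquitin ligase genes had 4 of 267 (1.5%), led by KLHL31 and TRIM62 at 142. Solute carriers had 4 of 374 (1.07%), led by SLC15A3 at 104, with SLC35D3. Cadherins outside the clusters had PCDH12 alone, at 80.4, among 50. Among the 87 listed chromatin writers and readers KMT2D was the only one, but BAHCC1 and SFMBT2, which have domains of chromatin readers and are not listed, had peaks with scores of 118 and 82.2. No exonic peak lay in any of the listed 53 clustered protocadherins, 53 histone genes, 98 ribosomal protein genes, 44 collagens, 180 cilium and axonemal dynein genes, 28 tubulins, 390 olfactory receptors or 55 keratins. Genes with a known part in cilia lie outside the listed symbols too, and of these SPEF1, SPAG1 and ALMS1 had coding peaks with scores of 106, 89.5 and 80.2, and RPGRIP1L had a 3′ UTR peak with a score of 81.5. The genes outside the lists were named after their values were seen and are examples only. How many such genes exist was not counted, so no share of them can be set beside 1.12%. These families differ in exon length and GC content, whose part in the shares was not tested.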

How the data were processed

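ChIP-exo was performed by the authors on HEK293T lines expressing ZNF676-3HA or ZNF728-3HA, with 1 library per protein. Per the study's methods, single-end reads were aligned to hg19 with Bowtie2 (versions not given in the sources used here), reads of low mapping quality and in blacklisted or high-input regions were removed, and peaks were called with MACS against a total input, without pooling. The deposited values are a score per peak, which by MACS convention is a transformed p-value. Peak numbers run to 41638 in the ZNF676 list and every score exceeds 80, so the deposited lists are subsets. The scores 83.5 and 92.5 recur, in 12 exonic peaks. Read counts and depth are unknown.

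Exons, introns and starts came from GENCODE release 44 lifted to GRCh37. Where transcripts differed, coding sequence took precedence over 5′ UTR and that over 3′ UTR. GC content was taken over 200 bp around the peak midpoint, since the lists hold no summits. LTR12C-like copies were alignments (blastn 2.17.0) covering at least 50% of the 1549 bp region amplified by the study's LTR12C primers (chr6:52651110-52652658), in all 3738. C2H2 genes were those whose longest coding sequence gives at least 3 matches of the zinc finger pattern, and other families were taken by symbol. Tests used Python 3.11.15, scipy 1.17.1 and statsmodels 0.14.6. They were exact binomial, Fisher's exact and permutation tests (100000 resamples), all two-sided, adjusted by Benjamini-Hochberg over 17 tests. The Poisson regressions used 11 strata of GC content and 5 of distance and were not among the 17. The permutation and regression code was tested on simulated data.

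The genes named were the 15 highest-scoring exonic peaks, genes with at least 2, peaks shared with ZNF728, the genes ZNF676, ZNF728, DNAH11 and C4orf47, the highest in each family (4 for C2H2 genes, 2 for others), the 3 nearest to the 500 bp limit on each side, and the 3 highest in each UTR. A gene outside this rule is named where a count needs it or where the text says that it was picked by its values. The members and lists were chosen with earlier results of these data known. Alternatives were the score filter, the limit from starts, exon membership by 50% of the peak, basic transcripts, leaving out C2H2 genes, and window, distance and overlap settings, with others added after seeing the data.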

Additional observations from a re-analysis of the deposited data

How the results depend on the processing

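Of 77 recomputed values, 68 gave the same direction and call, or a count within 1.5 times the one reported, and none reversed. Dropping scores under the list's median left 111 exonic peaks in 114 genes, 5 of them C2H2 genes, with fewer peaks compared, and a score ratio to introns of 1.04 (permutation test, p = 0.445). A minimum of 8 zinc finger matches left 5 C2H2 genes of 435. The score ratio also lost its call in the permutation test at a limit of 1000 bp (1.04, p = 0.289) and, among alternatives added after seeing the data, without peaks that reach within 500 bp of a start (1.04, p = 0.22). The cause was not tested. The density ratio of exons to introns was 1.54 to 2.31 under the planned settings. Added Poisson regression gave 1.05 (95% interval 0.905 to 1.22) within strata of GC content, 1.71 within strata of distance and 1.05 (0.902 to 1.22) within both. No paired analysis was possible because each protein has a single ChIP-exo library. Intervals cover the sampling of peaks only, and what a second ChIP-exo library would give is unknown. The paper also reports ZNF676 ChIP-seq with biological replicates, done in HEK293T and in human embryonic stem cells. Those peaks were not compared with the exonic peaks here.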

Other observations

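Codons of the coding peaks were rich in alanine, glycine, proline and arginine, whose codons are GC-rich. In the 200 bp windows of 154 coding peaks that could be read in frame, these made up 40.8% of 8582 codons, against 23.9% in windows of coding exons without a peak. At a GC content of at least 65% the share was 45.2% in 106 peaks, and 44.9% in windows without a peak weighted to the same GC content. Runs of at least 5 copies of 1 amino acid were read in 20 of these 106 windows (18.9%), against 8.65% of the weighted windows. A run of alanine was in 9 windows and a run of glycine in 5. The 106 peak windows held 6368 codons. The windows without a peak at this GC content, 11341 before weighting, held 543455, which is fewer per window. Fewer codons leave less room for a run, and the shares were not corrected for this. These counts were made after the triplet word had been seen and are given with no test.

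The RHOQ peak was the only exonic peak with a score of at least 200 and a GC content below 50%. Its window held a word that was in no other exonic window. The 30 bases around the word at chr2:46809405-46809434, plus strand, are tgaaaggctcTGCTTGAAAaaaaaaagaaa, with the word in capitals. TGCTTGAAA, on either strand, was in 1 of 216 exonic windows and in 0.24% of exon windows without a peak. Over all ZNF676 peaks off LTR12C it was in 21 of 359 with a score of at least 200 and in 10 of 3415 with a score below 100, and it was in none of the 383 peaks on LTR12C-like copies. The letters CTGCTTG also end a widely used Illumina sequencing adapter. Whether reads of adapter origin lie under such peaks was not tested, since the reads were not analysed here.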
